A study of Mus musculus with 4 samples.

Results

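The proteasome genes of late two-cell mouse embryos were examined with and without inhibition of MYC. Every gene whose symbol is Psm followed by a letter from a to g and a digit was taken, which gave 50 of the 24411 listed genes. Of these, 49 encode proteasome subunits, regulators or assembly factors, and the other, Psmc3ip, shares the letters but is a meiotic recombination factor. Psmc3ip is included wherever sums, counts or medians of the proteasome genes as a whole are given below. Embryos of the ICR strain were produced by in vitro fertilization of oocytes from superovulated mice and cultured in KSOM with bovine serum albumin until 36 h post-insemination (hpi). The control group was cultured with DMSO, the solvent, and the treated group with 6 µM 10074-G5 in DMSO, a small molecule that prevents the pairing of MYC with MAX, from 3 hpi according to the labels and 6 hpi according to the methods. Each group had 2 libraries of polyadenylated RNA, each from 10 pooled embryos. The methods call the libraries of a group biological replicates, without saying whether they came from separate inseminations. As the inhibitor acts on the protein throughout the embryo, the comparison is one of a drug at a single dose and time and not of a loss of the gene. The libraries held 18206584 to 20718690 expected counts.

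The 26S proteasome degrades proteins that carry ubiquitin chains. Its 20S core is a barrel of outer alpha rings, which form the gate, and inner beta rings, which carry the proteolytic sites. The 19S cap consists of a base, with a ring of ATPases that unfold the substrate, and a lid, which removes the ubiquitin. In mouse embryos, proteasomes inherited from the oocyte take part in the clearance of maternal proteins around zygotic genome activation.

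The labelled stage was checked by markers. All 8 two-cell markers were detected, with summed levels of 2719 and 2142 FPKM (fragments scaled to transcript length and library size) in the control libraries and 1874 and 2037 FPKM in the treated libraries. DMSO replicate 1 stood apart from the other libraries. The log2 CPM (counts scaled to library size) of DMSO replicate 2 correlated across genes at r = 0.887 with DMSO replicate 1 and at r = 0.912 and 0.926 with the treated libraries. In DMSO replicate 1, the two-cell marker Zscan4c had 14.6 FPKM against 252 to 385 FPKM in the other 3 libraries. It was also the lowest library for Zscan4d, Zfp352, Tdpoz4 and Usp17lc, but the highest for Dppa2 (942 FPKM against 106 to 224 FPKM), Dppa4 (1290 FPKM against 252 to 648 FPKM) and Eif1a (183 FPKM against 63.9 to 107 FPKM). The 5 oocyte markers of DMSO replicate 1 summed to 854 FPKM against 2047 FPKM in DMSO replicate 2 and 4351 and 3559 FPKM in the treated libraries. Oosp1 alone had 555 and 1572 FPKM in the control and 3691 and 2917 FPKM in the treated libraries. DMSO replicate 1 was the lowest library for Oosp1, Gdf9, Bmp15 and Nlrp5. It was the highest for Zp3, with 205 and 75.1 FPKM in the control and 58.95 and 65.1 FPKM in the treated libraries. Of 9 cumulus cell markers, 4 (Ptx3, Amh, Foxl2 and Inhba) were at 0 in every library, and the list summed to 0.58 and 4.98 FPKM in the control and 6.68 and 2.84 FPKM in the treated libraries. The leukocyte list summed to 11.3 and 33.3 FPKM in the control and 52.0 and 41.7 FPKM in the treated libraries, with Ptprc at 0 in 3 libraries and 0.07 FPKM in the fourth. In that list H2-Aa had 2.65 and 8.5 FPKM in the control and 23.1 and 25.2 FPKM in the treated libraries (edgeR adjusted p = 0.333, DESeq2 adjusted p = 0.0427), and Cd74 had 7.25 and 22.7 FPKM against 24.4 and 14.98 FPKM. The sperm list summed to 2.7 and 4.44 FPKM in the control and 16.1 and 9.29 FPKM in the treated libraries, with Prm1 at 0 in every library and Prm2 at 1.56 and 4.44 FPKM against 15.8 and 5.88 FPKM. The part of these differences in the results was not tested. Myc itself was at 7.59 and 7.81 FPKM in the control and 2.73 and 2.74 FPKM in the treated libraries.

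The proteasome genes as a group took a smaller share of the transcripts in the treated embryos. Their summed level was 11147 and 8353 TPM (transcripts scaled to the same total in each library) in DMSO replicates 1 and 2 and 5826 and 6143 TPM in 10074-G5-treated replicates 1 and 2, so that the groups did not overlap. They made up 0.910% and 0.687% of the counts in the control libraries and 0.524% and 0.537% in the treated libraries. Such shares are relative and do not give the amount of RNA per embryo. In these libraries, transcripts stored in the oocyte cannot be told apart from those made by the embryo. The core rings, the ATPases and the lid were lower in both treated libraries, whereas the summed levels of the base scaffolds, the activators and the base chaperones were not. In the plot of summed levels, both treated bars lie under both control bars for the alpha rings, the beta rings, the lid and the ATPases.

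**Figure D1:**
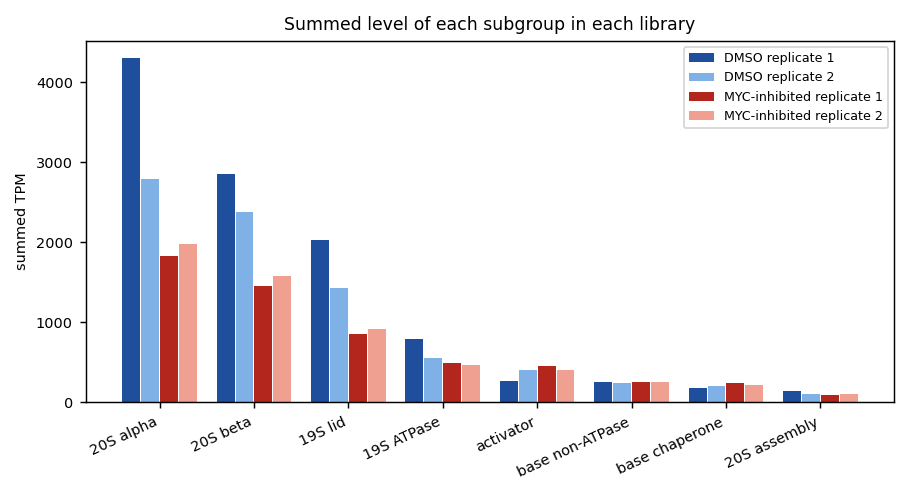
Summed TPM of the genes of each proteasome subgroup (x axis) in each of the 4 libraries (bars, 1 per library; y axis, TPM). The 20S alpha genes summed to 4307 and 2797 TPM in the control libraries and 1828 and 1975 TPM in the treated libraries, and the activators to 273 and 404 TPM and to 457 and 401 TPM.

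No single proteasome gene passed edgeR's quasi-likelihood test at an adjusted p under 0.05 with a log2 fold change (log2FC, treated over control) beyond 1, as was the case for all 13549 genes tested (0.0%). Of the 50 genes, 47 passed the filter on low counts, and Psma8, Psmb8 and Psmb11 did not. The adjusted p of the 47 genes ran from 0.333 to 0.997. At an unadjusted p under 0.05, 18 of the 47 were lower in the treated embryos, against 10.1% of all genes tested, and 2 (Psmf1 and Psmd9) were higher, against 4.72% of all genes. The median log2FC of the 47 genes was -0.60, with 38 below 0 and 9 above 0, and that of all genes was 0.04. In CPM, 29 of the 47 genes were lower in both treated libraries than in both control libraries, against 28.3% of all genes, and 5 (Psma7, Psmd9, Psmd10, Psme3 and Psmf1) were higher, against 28.9% of all genes.

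The study's own tool, DESeq2, run on all genes with transcript lengths, called 8 proteasome genes lower at an adjusted p under 0.05 and a log2FC beyond 1, against 5.38% of all genes with an adjusted p, and 0 higher, against 1.04%. They were the alpha subunits Psma3 and Psma6, the beta subunit Psmb5, the ATPase Psmc5, the lid subunits Psmd7, Psmd12 and Psmd13, and the assembly chaperone Psmg3. Their DESeq2 log2FC ran from -2.41 to -1.41 and their adjusted p by DESeq2 from 0.0019 to 0.0496, and over all alternatives of the analysis the adjusted p of these genes ran from 5.69e-30 to 0.992. DESeq2 on the genes kept by edgeR called 9 lower, against 5.86% of all genes, edgeR without the filter called 8 lower, against 2.63%, and limma on log2(FPKM + 1) called 0.

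These counts depend on single libraries. DMSO replicate 1 was above DMSO replicate 2 in CPM for 39 of the 47 genes and for all 8 called by DESeq2. Without DMSO replicate 1, 16 of 48 tested genes were lower at an unadjusted p under 0.05 by edgeR, against 7.36% of all genes, and 2 were higher, against 6.44%; the 16 were all among the 18. The median log2FC was then -0.27 beside 0.03 for all genes, DESeq2 called Psma6 and Psmb5 lower, against 2.55% of all genes, and Psmd9 higher, against 1.6%, and 9 genes were higher without overlap, against 37.2% of all genes. Without DMSO replicate 2, edgeR called 21 of 48 genes lower, against 14.1% of all genes, and 1 (Psmf1) higher, against 14.6%. At an unadjusted p under 0.05, 28 were then lower, against 20.5%, and 5 higher, against 21.5%, and the median was -0.93. Leaving out a treated library left 2 genes lower at an unadjusted p under 0.05 by edgeR, Psma6 and Psmg3 without treated replicate 1, against 2.05% of all genes, and Psma6 and Psmb5 without treated replicate 2, against 3.73%. DESeq2 then called 0 proteasome genes, against 0.0301% of all genes lower and 0.0226% higher without treated replicate 1 and 0.0968% lower and 0.0298% higher without treated replicate 2.

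**Figure D2:**
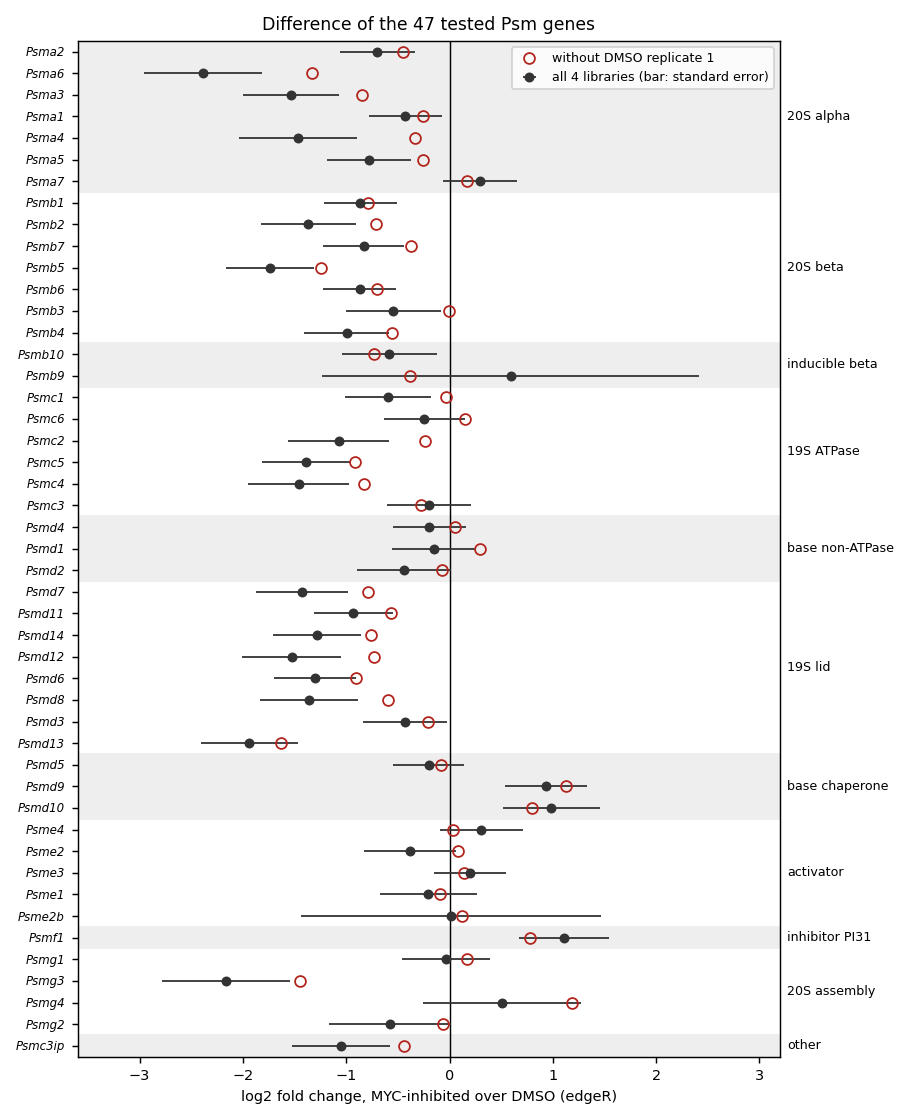
Log2FC (x axis) of each of the 47 tested genes (y axis, grouped by role and ordered by mean FPKM), with filled points and standard error bars for the fit of all 4 libraries and open circles for the fit without DMSO replicate 1. All 8 lid genes lie left of 0 in both fits, and Psmf1, Psmd9 and Psmd10 lie right of 0 in both.

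The promoters of the genes were then searched for motifs, whatever the side of 0 on which a gene lay in that plot. Each ran from 250 bases before to 50 bases after the start of the listed transcript. They were taken from RefSeq (GRCm38.p6) and found for 42 of the 50 genes, tested or not. The motif ACTTCCG, bound by ETS factors, was searched on both strands and occurred in 14 of the 42 promoters (33.3%), in 6.65% of all 27025 promoters and in 13.1% of the 10307 promoters of tested genes. Its 17 sites in these 14 promoters began between 115 bases before and 16 bases after the start. The site farthest upstream in each promoter is shown with 11 bases on each side, 5′ to 3′ on the strand that reads ACTTCCG, because the genes with the largest log2FC below 0 in the lid, the alpha ring and the assembly group hold one. The motif is in capitals.
Psma4 (chr9:54950745-54950773, plus strand): gcactgggagaACTTCCGcgtcctcccgc
Psma6 (chr12:55398830-55398858, plus strand): cagtagccataACTTCCGggagggggctt
Psmb4 (chr3:94886946-94886974, minus strand): ggcaaaggaccACTTCCGtttccggtgac
Psmc1 (chr12:100110128-100110156, plus strand): tttttaaagttACTTCCGttctgtccggg
Psmc2 (chr5:21785179-21785207, plus strand): gaccagtgagcACTTCCGggatggggctc
Psmc4 (chr7:28050064-28050092, minus strand): ctatgtgaaggACTTCCGttggcgtcagc
Psmd12 (chr11:107479499-107479527, plus strand): atgagcgggcgACTTCCGgtgcgagtgac
Psmd13 (chr7:140882292-140882320, minus strand): ccgcgttcttgACTTCCGctaaacttctc
Psmd14 (chr2:61711568-61711596, plus strand): cagctcgcctgACTTCCGcctcgcgggga
Psmd6 (chr14:14120972-14121000, plus strand): ccgccagtctgACTTCCGgtcgcgtctct
Psmd8 (chr7:29180673-29180701, minus strand): ggagcgaacggACTTCCGttcgccatttt
Psme3 (chr11:101316203-101316231, plus strand): gctgtgacgcaACTTCCGgcgtgagcggc
Psme4 (chr11:30771712-30771740, minus strand): ggcctcaagtcACTTCCGgggcggggcca
Psmg3 (chr5:139826872-139826900, plus strand): tcccggcgagaACTTCCGgttcctgtccg

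The 14 genes with the motif had a median log2FC of -1.33, and 10 of them were lower at an unadjusted p under 0.05. The 26 tested genes with a promoter that lacked it had a median log2FC of -0.31, and 5 of them were lower at that p. Among all tested genes with a promoter, 19.1% of those with the motif and 8.83% of those without it were lower at that p. The median log2FC of all tested genes with a promoter was -0.41 with the motif and 0.11 without it. Without DMSO replicate 1, the medians of the proteasome genes with and without the motif were -0.67 and -0.08. Psme3 and Psme4 hold the motif and had a log2FC above 0, and Psmb5, which DESeq2 called lower, has a promoter without it. A match of letters is a description and not a bound site.

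**Figure D3:**
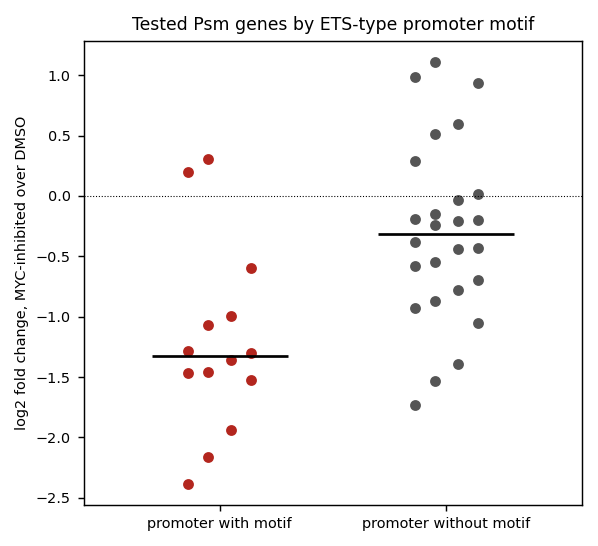
Log2FC (y axis) of the tested proteasome genes, 1 point per gene, by whether the promoter holds ACTTCCG on either strand (x axis), with the median as a line. The 14 genes with the motif have a median of -1.33 and the 26 without it -0.31. The medians of all tested genes with a promoter, not drawn, are -0.41 and 0.11.

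The other 4 motifs, searched on both strands, were no more frequent in these promoters than in those of tested genes. The E-box CACGTG, to which MYC and MAX bind, was found in 4 promoters (9.52%; Psma4, Psmb10, Psmd9 and Psme3), in 7.18% of all promoters and in 10.04% of those of tested genes. These 4 genes had a median log2FC of -0.19, and 1 was lower at an unadjusted p under 0.05 by edgeR. The 36 tested proteasome genes with a promoter that lacked the E-box had a median of -0.65, and 14 were lower. Among all tested genes with a promoter, 13.8% of those with the E-box and 9.76% of those without it were lower at that p. The core of the antioxidant response element, TGACNNNGC, which is bound by the proteasome gene activator NFE2L1, was in 6 promoters (14.3%), in 12.5% of all and in 14.5% of those of tested genes. CCAAT, the NF-Y box, was in 14 (33.3%), in 37.9% of all and in 40.0% of those of tested genes. TGACGTCA, the CRE, which shares its first letters with the antioxidant core, was in 0 of the 42, in 1.84% of all and in 3.24% of those of tested genes. Among all tested genes with a promoter, 14.7% of those with the CRE and 10.02% of those without it were lower at that p. The shares were 10.44% and 10.12% for the antioxidant core and 9.56% and 10.58% for CCAAT. The medians of the proteasome genes with and without these 2 motifs were -0.56 and -0.59, and -0.54 and -0.78.

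The 7 common alpha subunits had the highest summed TPM of the groups. In CPM, 6 of them were lower in both treated libraries than in both control libraries, against 28.3% of all genes. Psma6 had the largest difference of the 50 genes, with 1249 and 478 FPKM in the control libraries and 167 and 212 FPKM in the treated libraries (log2FC -2.38 ± 0.57 SE, edgeR unadjusted p = 0.00366, adjusted p = 0.333). Control and treated values did not overlap, and DMSO replicate 1 was the higher of the control pair. Psma3 had 675 and 366 FPKM in the control and 191 and 216 FPKM in the treated libraries (log2FC -1.54 ± 0.46). Psma3 has near-identical matches in 4 other genes, so its unique reads are uncertain. Psma2, the most abundant of all the genes by mean FPKM, had 678 and 596 FPKM in the control and 426 and 443 FPKM in the treated libraries (log2FC -0.70 ± 0.36). Psma1 had 265 and 256 FPKM against 194 and 234 FPKM. Psma4 had 409 and 146 FPKM against 98.9 and 132 FPKM, with DMSO replicate 1 far above the rest. Psma5 had 208 and 134 FPKM against 118 and 106 FPKM. Psma7 was the exception, with 77.2 and 112 FPKM in the control and 125 and 125 FPKM in the treated libraries (log2FC 0.29 ± 0.36, adjusted p = 0.703 by edgeR). Psma8, an alpha subunit of male germ cells, had 0.85 FPKM in DMSO replicate 1 and was listed at 0 in the other 3 libraries. The median log2FC of the 7 tested genes was -0.78, and -0.33 without DMSO replicate 1. With all libraries, 3 were lower at an unadjusted p under 0.05, against 10.1% of all genes. The bases just before the start of the listed Psma6 transcript are given because it had the smallest p of the lower genes.
Psma6 (chr12:55398705-55398824, plus strand): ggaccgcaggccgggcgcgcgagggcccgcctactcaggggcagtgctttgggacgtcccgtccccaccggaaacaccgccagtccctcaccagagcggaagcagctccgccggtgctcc

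The 7 constitutive beta subunits all had a log2FC below 0, with a median of -0.87, or -0.71 without DMSO replicate 1. With all libraries, 5 were lower at an unadjusted p under 0.05, against 10.1% of all genes. Psmb5, the chymotrypsin-like site of the core, had 295 and 198 FPKM in the control and 71.3 and 94.5 FPKM in the treated libraries (log2FC -1.74 ± 0.42, edgeR unadjusted p = 0.00407, adjusted p = 0.333). Its groups did not overlap, and 12.1% of its exon bases lie in the microRNA gene Mir686. Psmb6, the caspase-like site, had 147 and 143 FPKM against 91.0 and 84.2 FPKM (log2FC -0.87 ± 0.36). Psmb7, the trypsin-like site, had 405 and 280 FPKM against 214 and 216 FPKM (log2FC -0.83 ± 0.40). Of its exon bases, 11.8% overlap Nek6 on the other strand. Near-identical matches were found in Gm3375 for Psmb5 and in Psmb6-ps2 for Psmb6. All 3 catalytic sites thus had lower levels in both treated libraries than in both control libraries, against 28.3% of all genes in CPM. Psmb1 had 510 and 564 FPKM against 295 and 354 FPKM (log2FC -0.86 ± 0.35). Psmb2 had 730 and 409 FPKM against 211 and 287 FPKM (log2FC -1.37 ± 0.46). Psmb4 was the lowest of the ring by mean FPKM, with 124 and 87.1 FPKM against 56.0 and 62.2 FPKM (log2FC -0.997 ± 0.42). The non-catalytic subunits Psmb1, Psmb2 and Psmb4 also had separate groups. Psmb3, which has near-identical matches in 3 other genes, had 151 and 95.3 FPKM against 112 and 76.1 FPKM, and its groups overlapped.

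Although 1 copy of each is needed per ring, the transcripts of the 14 common core subunits were uneven. The highest was 16.2, 6.84, 7.60 and 7.12 times the lowest in DMSO replicates 1 and 2 and treated replicates 1 and 2, and the SD of their log2 FPKM was 1.15, 0.97, 0.80 and 0.88. The order of mean FPKM over the 4 libraries was led by Psma2 (536 FPKM), Psma6 (526 FPKM), Psmb1 (431 FPKM), Psmb2 (409 FPKM) and Psma3 (362 FPKM). Psma2 and Psma6, Psma6 and Psmb1, and Psmb1 and Psmb2 changed places in at least 1 library and did not differ beyond their spread, while Psmb2 was above Psma3 in all 4. Ordered by TPM, 13 of the 47 genes with a mean of at least 1 FPKM changed rank, by at most 2 places.

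**Figure D4:**
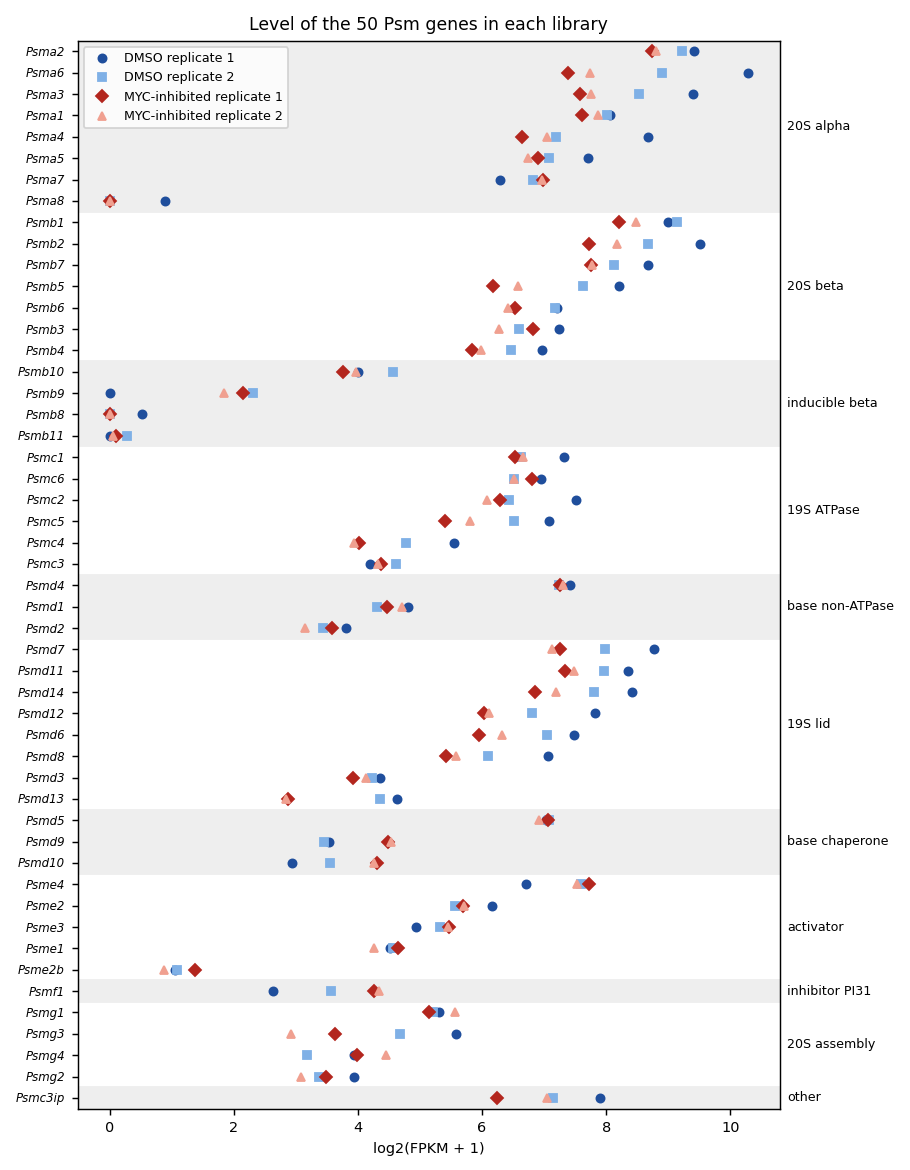
Level of each of the 50 genes (y axis, grouped by role and ordered by mean FPKM) in each library (symbols) as log2(FPKM + 1) (x axis). Psma2, Psma6 and Psmb1 lie at the top of the range, and Psmb8, Psmb11 and Psma8 at or near 0.

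The immunoproteasome subunits, which are induced by interferon and replace the 3 catalytic subunits in the core, were low in all libraries. Psmb10, which replaces Psmb7, had 14.98 and 22.64 FPKM in the control and 12.6 and 14.7 FPKM in the treated libraries (log2FC -0.58 ± 0.46, edgeR adjusted p = 0.536). Relative to Psmb7 this was 3.70% and 8.09% in the control and 5.86% and 6.78% in the treated libraries, and the log2 of this ratio differed by 0.20 (exact two-sided permutation test over libraries, p = 1, where the smallest p that 2 against 2 allows is 0.333). Psmb9, which replaces Psmb6, was listed at 0 in DMSO replicate 1 and had 3.97 FPKM in DMSO replicate 2 and 3.45 and 2.59 FPKM in the treated libraries. Its log2FC of 0.59 ± 1.82 turned to -0.39 without DMSO replicate 1. Its ratio to Psmb6 was 2.77% in DMSO replicate 2 and 3.79% and 3.07% in the treated libraries, and part of its exon bases (5.79%) overlaps Tap1 on the other strand. Psmb8, which replaces Psmb5, had 0.44 FPKM (8 counts) in DMSO replicate 1 and was listed at 0 in the other 3 libraries, where 3 counts per library is the limit that a count of 0 allows. Psmb11, the thymus subunit, was between 0 and 0.22 FPKM. Of the leukocyte markers, Ptprc was at 0.07 FPKM or below in every library, whereas H2-Aa at 2.65 to 25.2 FPKM and Cd74 at 7.25 to 24.4 FPKM were in the range of Psmb10 or above it in some libraries, and their part in these levels was not tested. The 120 bases before the start of the listed transcripts are given for the partners with a matched promoter, which leaves out Psmb7. Capitals mark the antioxidant core in Psmb5 and Psmb6, the reverse complement of CCAAT in Psmb9 and the E-box in Psmb10, and none of the motifs was in the window of Psmb8.
Psmb5 (chr14:54617996-54618115, minus strand): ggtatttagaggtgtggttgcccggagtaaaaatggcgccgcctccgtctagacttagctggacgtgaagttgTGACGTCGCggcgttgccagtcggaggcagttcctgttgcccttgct
Psmb6 (chr11:70525237-70525356, plus strand): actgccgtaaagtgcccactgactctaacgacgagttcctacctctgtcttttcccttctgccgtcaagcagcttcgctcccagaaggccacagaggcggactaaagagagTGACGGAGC
Psmb8 (chr17:34198075-34198194, plus strand): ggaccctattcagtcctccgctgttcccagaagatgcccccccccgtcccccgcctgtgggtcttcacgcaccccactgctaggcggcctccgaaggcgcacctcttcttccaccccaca
Psmb9 (chr17:34187331-34187450, minus strand): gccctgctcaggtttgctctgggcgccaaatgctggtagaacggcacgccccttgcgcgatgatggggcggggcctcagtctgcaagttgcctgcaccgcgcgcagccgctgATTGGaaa
Psmb10 (chr8:105938393-105938512, minus strand): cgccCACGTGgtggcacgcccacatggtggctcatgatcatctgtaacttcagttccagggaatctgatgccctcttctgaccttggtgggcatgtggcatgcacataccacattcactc

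All 6 ATPases of the base had a log2FC below 0, with a median of -0.83 that became -0.26 without DMSO replicate 1. Psmc4 had 45.7 and 26.3 FPKM in the control and 15.2 and 14.3 FPKM in the treated libraries (log2FC -1.46 ± 0.49). Psmc5 had 134 and 90.8 FPKM against 41.1 and 55.1 FPKM (log2FC -1.39 ± 0.42, DESeq2 adjusted p = 0.0496). These were the 2 ATPases lower at an unadjusted p under 0.05, against 10.1% of all genes. Psmc1, the most abundant by mean FPKM over the 4 libraries, had 158 and 98.1 FPKM against 91.2 and 99.9 FPKM (log2FC -0.60 ± 0.42). Psmc2 had 181 and 85.1 FPKM against 77.6 and 66.5 FPKM. Psmc6 had 122 and 90.5 FPKM against 111 and 90.2 FPKM. In these 3 genes, DMSO replicate 1 was the highest library. Psmc3, the least abundant by that mean, had 17.2 and 23.4 FPKM against 19.65 and 18.99 FPKM (log2FC -0.20 ± 0.41), and its FPKM groups overlapped.

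The scaffold subunits of the base, Psmd1 and Psmd2, and the ubiquitin receptor Psmd4 had a median log2FC of -0.20, or 0.048 without DMSO replicate 1. Psmd4 had 169 and 150 FPKM in the control and 152 and 157 FPKM in the treated libraries (log2FC -0.20 ± 0.35), and its log2FC turned to 0.048 without DMSO replicate 1. Psmd1 had 26.9 and 18.9 FPKM against 21.2 and 25.1 FPKM. Psmd2 had 13.0 and 9.88 FPKM against 10.9 and 7.89 FPKM (log2FC -0.44 ± 0.45). For all 3 genes the groups overlapped, and none had an unadjusted p under 0.05, against 10.1% of all genes lower and 4.72% higher.

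The lid had the lowest median log2FC of the subgroups with more than 1 gene, -1.33, or -0.75 without DMSO replicate 1. All 8 lid genes had a log2FC below 0. In CPM, all 8 were lower without overlap, against 28.3% of all genes. At an unadjusted p under 0.05, 7 were lower, against 10.1% of all genes. Psmd13 had the largest difference, with 23.7 and 19.4 FPKM in the control and 6.33 and 6.21 FPKM in the treated libraries (log2FC -1.94 ± 0.47, edgeR unadjusted p = 0.00376, adjusted p = 0.333). In CPM its control libraries had 34.9 and 24.0, and its log2FC without DMSO replicate 1 was -1.63. Its exons overlap those of Sirt3 on the other strand over 10.1% of their bases. Psmd12 had 225 and 110 FPKM against 64.3 and 68.4 FPKM (log2FC -1.53 ± 0.48). Psmd7, the inactive partner of the deubiquitinase, had 438 and 251 FPKM against 151 and 138 FPKM (log2FC -1.43 ± 0.45). Psmd14, the deubiquitinase that releases ubiquitin chains from substrates, had 342 and 221 FPKM against 115 and 146 FPKM (log2FC -1.28 ± 0.42). Thus both members of the deubiquitinating pair had lower levels in the treated libraries. Psmd6 had 177 and 131 FPKM against 60.9 and 79.4 FPKM (log2FC -1.30 ± 0.40). Psmd8 had 133 and 67.4 FPKM against 42.0 and 46.9 FPKM. Psmd11 had 325 and 250 FPKM against 160 and 177 FPKM. These structural subunits had separate groups, with DMSO replicate 1 the highest library in each. Psmd3, the exception to the unadjusted threshold, had 19.5 and 17.8 FPKM against 14.1 and 16.6 FPKM.

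Of the chaperones that help the base assemble, Psmd9 and Psmd10 had higher levels in the treated libraries. Psmd9 had 10.57 and 10.01 FPKM in the control and 21.5 and 22.2 FPKM in the treated libraries (log2FC 0.94 ± 0.40, edgeR unadjusted p = 0.0470, adjusted p = 0.334), and is named here because it was 1 of the 2 higher genes, a choice made after its values were seen. Psmd10, also known as gankyrin, had 6.71 and 10.8 FPKM against 18.9 and 18.1 FPKM (log2FC 0.98 ± 0.47). In both genes the treated libraries were above both control libraries. Psmd5 had 129 and 134 FPKM against 132 and 120 FPKM (log2FC -0.20 ± 0.35). The chaperones of the core ring differed among themselves. Psmg3 had 46.7 and 24.7 FPKM in the control and 11.4 and 6.58 FPKM in the treated libraries (log2FC -2.16 ± 0.62, unadjusted p = 0.00922 and adjusted p = 0.333 by edgeR). It has a near-identical match in the gene Gm26938, whose position was not checked. Psmg1, which pairs with Psmg2, had 38.4 and 36.0 FPKM against 34.2 and 46.5 FPKM (log2FC -0.03 ± 0.43), and its sign turned with the scaling to library totals (0.12). Psmg2 had 14.3 and 9.31 FPKM against 10.3 and 7.44 FPKM (log2FC -0.58 ± 0.59). For both the groups overlapped, unlike Psmg3. Psmg4, the partner of Psmg3, had 14.3 and 8.05 FPKM against 14.9 and 20.9 FPKM.

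The activators, which open the gate of the core in place of the cap, had a median log2FC of 0.02. Of the 5, 0 had an unadjusted p under 0.05, against 10.1% of all genes lower and 4.72% higher. Psme4, the activator known for the degradation of acetylated histones, was the most abundant by mean FPKM, with 103 and 192 FPKM in the control and 210 and 185 FPKM in the treated libraries (log2FC 0.31 ± 0.40). The low library was DMSO replicate 1, and the others overlapped. Psme3, the nuclear activator, had 29.6 and 39.1 FPKM against 43.4 and 42.7 FPKM. Psme1 had 21.8 and 22.7 FPKM against 24.2 and 18.2 FPKM. Psme2 had 70.2 and 46.3 FPKM against 50.7 and 51.5 FPKM. The interferon-induced pair of Psme1 and Psme2 thus had overlapping groups. Psme2b, a near-identical copy of Psme2, had 1.07 and 1.13 FPKM against 1.6 and 0.84 FPKM (log2FC 0.02 ± 1.45), with a sign that turned in some alternatives.

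Psmf1, which encodes the proteasome inhibitor PI31, had the largest log2FC above 0. It had 5.21 and 10.9 FPKM in the control and 18.1 and 19.3 FPKM in the treated libraries (log2FC 1.11 ± 0.43, edgeR unadjusted p = 0.0357, adjusted p = 0.333). The treated libraries were above both control libraries, and the log2FC without DMSO replicate 1 was 0.77. The bases before the start of its listed transcript hold none of the 5 motifs.
Psmf1 (chr2:151741311-151741430, minus strand): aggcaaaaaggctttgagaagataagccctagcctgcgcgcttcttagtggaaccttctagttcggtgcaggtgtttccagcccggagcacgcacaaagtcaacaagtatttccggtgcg

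Psmc3ip, the meiotic factor, had 237 and 140 FPKM in the control and 74.5 and 131 FPKM in the treated libraries (log2FC -1.05 ± 0.48), and 21.2% of its exon bases overlap Mlx on the other strand. Among the 50 genes, 10 share exon bases with another gene, 4 of them over at least 10% of their bases. A match of at least 95% identity over 200 bases or more in another gene was found for 15. These 15 include Psmc3ip with Mlx and Psmd13 with Sirt3, the genes that overlap them, so these matches can be the shared bases and not further copies. Overlap was checked only with listed genes, so a match in a gene that is not listed can also be shared bases.

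Other genes of the pathway were read from lists fixed with the subgroups. Of 10 tested cofactors and assembly genes outside the Psm symbols, 5 were lower and 0 higher at an unadjusted p under 0.05. Of all genes tested, 10.1% were lower and 4.72% higher at that p. The median log2FC of the 10 genes was -0.75, which became -0.40 without DMSO replicate 1. Pomp, which matures the core, had 441 and 239 FPKM in the control and 125 and 161 FPKM in the treated libraries (log2FC -1.43 ± 0.46). Usp14, a deubiquitinase bound to the cap, had 67.2 and 32.0 FPKM against 17.5 and 20.1 FPKM (log2FC -1.59 ± 0.49). Adrm1, a ubiquitin receptor of the cap, had 116 and 84.1 FPKM against 49.0 and 49.8 FPKM (log2FC -1.18 ± 0.40). Each had groups without overlap, and DMSO replicate 1 was the highest library. Of 10 regulators of proteasome transcription, 0 were lower or higher at that p, beside the same shares of all genes. Nfe2l1, which activates proteasome genes, had 4.98 and 4.34 FPKM against 5.03 and 6.46 FPKM (log2FC 0.20 ± 0.45). The smallest p of these regulators belonged to its relative Nfe2l2, with 7.73 and 10.8 FPKM against 18.9 and 15.5 FPKM, to Ngly1, which processes NFE2L1, with 5.46 and 16.9 FPKM against 23.5 and 20.5 FPKM, and to the NF-Y subunit Nfyc, with 98.6 and 71.5 FPKM against 76.5 and 68.7 FPKM. Of the 7 tested genes for loading peptides on MHC class I, which use the products of the immunoproteasome, 0 were lower or higher at that p. The shares of all genes were again 10.1% and 4.72%. Their smallest p belonged to the interferon factor Irf1, with 8.67 and 17.5 FPKM against 20.5 and 30.02 FPKM, and to H2-K1 and Erap1, each below 3 FPKM in every library.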

How the data were processed

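The authors aligned reads of polyadenylated RNA to mm10 with STAR (2.7.10 per the labels), kept unique reads and quantified 24411 genes with RSEM 1.3.3. The expected count deposited by the authors is the estimated number of fragments of a gene, not normalized. The deposited FPKM divides by effective length and library size, and the deposited TPM sums to the same total in every library. Their effective lengths were used as deposited in the DESeq2 fit. Copies made by PCR were counted as molecules, so limits from counts cover counting error only.

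Expected counts were rounded, filtered with filterByExpr (minimum count 10, minimum total 15) and scaled with TMM. The groups were compared with edgeR 4.0.16 (robust quasi-likelihood test, R 4.3.3), adjusted over 13549 genes by Benjamini-Hochberg. Thresholds were an adjusted p of 0.05 and a log2FC of 1, as in the study. Alternatives used DESeq2 1.42.0 and limma 3.58.1, other scalings and filters, a replicate block and each library left out. The code was tested on simulated data. Members and lists were chosen with earlier results of these data known. Each gene with a mean of at least 1 FPKM is named, with a log2FC for the 12 smallest p, Psmb5 to Psmb10 and the highest and lowest of each subgroup. A gene of the ubiquitin list is not reported here.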

Additional observations from a re-analysis of the deposited data

How the results depend on the processing

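Edits to the analysis moved counts more than directions. Of 33 named genes, 29 kept their sign in every alternative. Of 560 values of these genes under alternatives, 481 stayed on the same side of the threshold, 63 passed it and 16 turned, in 4 genes. Psmg1 turned to 0.10 by limma with either pseudocount, 0.12 with library totals, and 0.17 and 0.20 without DMSO replicate 1 or treated replicate 1 (0.16 and 0.15 by DESeq2 with lengths). Psmb9 turned to -0.39 (DESeq2 -0.40) and Psmd4 to 0.048 (DESeq2 0.041) without DMSO replicate 1. Psme2b turned to -0.07 without DMSO replicate 2 (DESeq2 -0.13) and -0.49 without treated replicate 1 (DESeq2 -0.55). The cause was not tested. With each library left out in turn in edgeR, their highest or lowest other values were 7.92 for Psmb9 without DMSO replicate 2, where 1 control library at 0 is left, and 0.42 for Psme2b and -0.25 for Psmg1 without treated replicate 2.

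The 0 genes called lower became 9 with DESeq2 on the same genes, 8 with DESeq2 and lengths and 8 without the filter. The 2 genes higher at an unadjusted p under 0.05 became 1 with DESeq2 size factors and 1 without the filter. Groups separate more easily in every gene when 1 of them holds a single library. With all 4 libraries, 28.3% of all genes were lower and 28.9% higher in CPM without overlap. With a library left out, these shares were 36.2% to 41.2% lower and 37.2% to 45.4% higher. Leaving out a library in edgeR gave 0 to 21 called lower, 0 to 1 called higher, 2 to 28 lower and 0 to 5 higher at that p, a median log2FC of -0.93 to -0.27, and 30 to 38 genes lower and 6 to 9 higher without overlap. In DESeq2 with lengths, a choice made after seeing the data, leaving out DMSO replicate 1 gave 2 called lower, 1 higher and a median of -0.28. Leaving out DMSO replicate 2 gave 22 and 2 called, 28 lower and 4 higher at that p, and a median of -0.997. Leaving out treated replicate 1 or 2 gave 5 or 11 lower and 0 higher at that p. A lone library was assumed to vary like the other group. For DESeq2 without DMSO replicate 2, the shares of all genes were not computed. For DESeq2 without a treated library, they were not computed at an unadjusted p under 0.05. The DESeq2 counts of these fits therefore cannot be set beside those of all genes, and nothing about the proteasome genes is concluded from them. With library totals the median of all genes was 0.17 and that of the proteasome genes -0.46.

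Deviations of libraries with the same replicate number correlated at r = -0.034. As each group has 2 libraries, this is a single value and cannot decide whether the libraries were paired. With the replicate number as a block, 0 proteasome genes were called, and 14 were lower and 0 higher at an unadjusted p under 0.05. The share of all genes at that p was not computed for this fit. Its median log2FC was -0.58 for the proteasome genes and 0.07 for all genes, and Psme2b had a log2FC of -0.055. With 2 libraries a group, an exact permutation test cannot go below 0.333.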

Other observations

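Genes that bring substrates to the proteasome or make ubiquitin were read from lists chosen with the subgroups. Of 10 tested shuttle and unfolding genes, 2 were lower at an unadjusted p under 0.05 by edgeR, against 10.1% of all genes, and 0 higher, against 4.72%. Their median log2FC was -0.43 (-0.24 without DMSO replicate 1). Ubxn1, a cofactor of the unfolding ATPase Vcp, had 442 and 209 FPKM in the control and 98.3 and 149 FPKM in the treated libraries, and Ufd1l, another Vcp cofactor, had 49.0 and 24.6 FPKM against 15.3 and 14.8 FPKM. Vcp had 30.4 and 22.7 FPKM against 13.7 and 18.3 FPKM.

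Among genes for ubiquitin and its activation, Rps27a, which encodes ubiquitin fused to a ribosomal protein, had 982 and 531 FPKM in the control and 321 and 344 FPKM in the treated libraries, and was lower at that p. The conjugating enzyme gene Ube2r2 had 8.49 and 3.37 FPKM against 2.59 and 1.40 FPKM, and was also lower at that p. The polyubiquitin gene Ubb had 1918 and 2046 FPKM against 3566 and 2876 FPKM (log2FC 0.56 ± 0.39, edgeR adjusted p = 0.478), a gene named after its values were seen.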
